A study of Arabidopsis thaliana with 12 samples.

Results

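The comparison is between roots and the aerial part of Arabidopsis thaliana plants labelled psp1 mutant, with 3 libraries of each organ, or 6 of the 12 libraries of the series. All genes that passed a filter on low counts were described, and the 6 wild type (WT) libraries of the same organs served as the reference. Both genotypes were of the Columbia ecotype and were grown upright on agar plates with a long day; shoots and roots were taken as whole organs at the end of the night. The labels describe the psp1 plants as mutants of phosphoserine phosphatase and give no allele, no plant age and no other transgene. Library titles carry the prefix HS for the psp1 libraries and WT for the others, and the titles do not explain HS. They describe the 3 libraries of a group as independent biological replicates. A whole organ mixes many cell types, so fewer cells of a type and less RNA per cell cannot be told apart in any difference below.

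Plants make serine by several routes. In green tissue much of it comes from photorespiration, in which glycine from the oxygenation reaction of Rubisco is converted to serine in mitochondria. The phosphorylated pathway starts from a glycolytic intermediate in plastids, and in Arabidopsis it is known for its part in roots, embryos and pollen, where photorespiration supplies little. Its enzymes are phosphoglycerate dehydrogenase, phosphoserine aminotransferase and phosphoserine phosphatase. Serine in turn feeds the synthesis of cysteine, tryptophan, sphingolipids and folate-bound carbon units.

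Total estimated counts were 5815906, 3757545 and 3627193 in aerial libraries 1 to 3 labelled psp1 and 5873935, 4920392 and 4191768 in root libraries 1 to 3. The WT libraries held 7302386 to 9590308. The 100 most abundant genes took 22.86% to 25.4% of the counts in the aerial libraries labelled psp1 and 15.48% to 16.73% in the root libraries. Between replicates of the libraries labelled psp1 the biological coefficient of variation was 26.5% in the aerial part and 19.6% in roots, against 11.4% and 15.2% in WT. Seed and flower markers were nearly absent, with 10 of 15 at 0 counts in all 6 libraries. Values below are read counts scaled to a common library size (CPM) with TMM factors, given for libraries 1, 2 and 3 in that order, and come from the libraries labelled psp1 unless WT is named. The factors were computed separately for the 6 libraries of each genotype, so CPM of WT and of psp1 are not on one joint scale. Only the tests over all 12 libraries used joint factors. Log2 fold changes are roots over aerial part with the standard error (SE, n = 3 libraries per organ), and adjusted p-values come from the exact test of edgeR with Benjamini-Hochberg adjustment.

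PSP1 (locus AT1G18640, on the minus strand of chromosome 1 at 6416169 to 6418693 in TAIR10.1), which encodes the phosphoserine phosphatase named in the labels, went against the genotype label in the aerial part. Its estimated counts there were 2331, 1144 and 883 in the libraries labelled psp1 and 661, 535 and 368 in WT. In roots they were 667, 599 and 608 in the libraries labelled psp1 and 1241, 1441 and 1352 in WT. These counts are not scaled for depth, which was lower in the libraries labelled psp1. Scaled means in the aerial part were 384 CPM in the libraries labelled psp1 and 75.2 in WT. In roots the scaled means were closer, at 105 CPM in the libraries labelled psp1 and 130 in WT. Counts over coding sequence leave it unknown whether the transcripts are intact. The genotype is therefore given as labelled, and each direction between genotypes rests on that label.

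Of 17344 genes tested, 8615 (49.7%) were called different between the organs at an adjusted p under 0.01. Of all genes tested, 25.2% (4363) were called higher in roots and 24.5% (4252) higher in the aerial part. The median log2 fold change of all tested genes was 0.04. A fold of at least 4 was reached by 4533 called genes (26.1%), with 2410 (13.9%) higher in roots and 2123 (12.2%) higher in the aerial part. The 3 values of one organ all lay above the 3 of the other for 10957 genes (63.2%). Scaling to library totals in place of TMM factors moved the median of all genes to 0.6, and the called genes then divided into 7137 higher in roots and 2849 higher in the aerial part (71.5% in roots, against 50.6% with TMM). The direction of small differences is therefore relative to the TMM scale. In the counts of gene list members below, higher means called higher, and these counts stand beside the 25.2% and 24.5% of all genes.

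**Figure D1:**
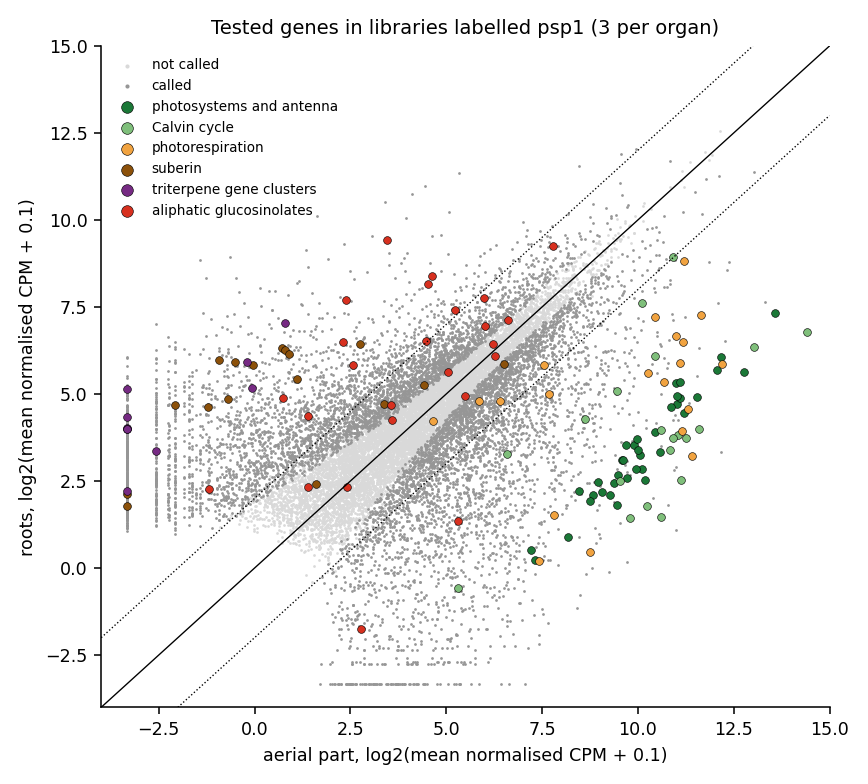
Mean normalised CPM of each tested gene in the aerial part (x axis) and in roots (y axis) of plants labelled psp1, as log2 of the mean plus 0.1. Members of the photosystem, Calvin cycle, photorespiration, suberin, triterpene and aliphatic glucosinolate lists are coloured. The solid line marks equal levels and the dotted lines a 4-fold difference; photosystem genes lie below the lower dotted line, at a median log2 fold change of -6.64.

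RCA (AT2G39730; chromosome 2, 16570746 to 16573692), the activase of Rubisco, stood at 21410, 21750 and 21890 CPM in the aerial part and at 84.0, 92.4 and 155 in roots, 197-fold lower (log2 -7.62 ± 0.27, adjusted p = 1.17e-135). The next genes by aerial level among those at least 8-fold different were LHCB1.3, CHLH, GAPA1, LHCB5 and the nitrate reductase NIA2. In roots the highest such gene was PYK10 (AT3G09260; chromosome 3, 2840477 to 2843781), the beta-glucosidase stored in endoplasmic reticulum (ER) bodies. It stood at 2986, 3454 and 2585 CPM in roots and at 324, 366 and 366 in the aerial part (8.55-fold, log2 3.096 ± 0.134, adjusted p = 1.7e-58). DOT1, a glycine-rich protein gene, and AT4G11320, a papain family protease gene, followed at mean levels 65.7 and 93.7 times those of the aerial part. The fatty acid dioxygenase gene DOX1 was 137-fold higher in roots, at 1463, 1667 and 1274 CPM.

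Among genes with at least 10 counts in the lower organ, the largest root-directed fold was that of GRP9, another glycine-rich protein gene, which stood at 1277, 798 and 1229 CPM in roots and 2.25, 3.30 and 3.37 in the aerial part (379-fold, adjusted p = 8.98e-150). The sucrose phosphatase gene SPP1 (219-fold) and F6'H1 (201-fold), whose enzyme makes the coumarin scopoletin, came in the same range. Without aerial library 2 the log2 fold change of SPP1 was 8.89 in place of 7.77, and without aerial library 1 that of F6'H1 was 8.74 in place of 7.65. In the other direction the carbonic anhydrase gene CA2 stood at 2049, 1907 and 2211 CPM in the aerial part and at 1.14, 0.825 and 4.16 in roots (log2 -10.05 ± 0.62, adjusted p = 3.35e-205), or -10.98 without root library 3. These genes were chosen among those with no overlap of the organs, so the separation of their libraries was set by that choice.

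The phosphorylated serine pathway had 4 genes higher in roots and 2 higher in the aerial part, all 6 called. Of its dehydrogenases, PGDH1 (AT4G34200; chromosome 4, 16373731 to 16376666) stood at 82.9, 129 and 171 CPM in the aerial part against 318, 278 and 362 in roots (2.51-fold, log2 1.33 ± 0.32, adjusted p = 2.04e-07). PGDH2 (AT1G17745; chromosome 1, 6100964 to 6105347) stood at 26.4, 24.4 and 32.0 CPM in the aerial part against 223, 217 and 190 in roots (7.63-fold, log2 2.93 ± 0.14, adjusted p = 5.04e-49). Its coding sequence overlaps AT1G17744 on the opposite strand by 425 bases, and reads of the pair cannot be told apart there. PGDH3 (AT3G19480; chromosome 3, 6752422 to 6754785) went the other way. It stood at 47.3, 67.7 and 84.6 CPM in the aerial part and at 0.285, 0.495 and 0.793 in roots, 126-fold lower (log2 -6.98 ± 0.39, adjusted p = 2.38e-56). The dehydrogenase genes thus divided between the organs. The libraries did not overlap in any of them, which also held for 63.2% of all genes tested.

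Both aminotransferase genes were higher in roots. PSAT1 (AT4G35630; chromosome 4, 16904059 to 16905722) stood at 23.9, 33.0 and 19.2 CPM in the aerial part against 152, 159 and 162 in roots (6.23-fold, log2 2.64 ± 0.22, adjusted p = 4.49e-32). PSAT2 (AT2G17630; chromosome 2, 7666548 to 7668065) was the lowest of the 6, at 5.12, 1.32 and 3.03 CPM in the aerial part against 19.1, 15.7 and 15.3 in roots (5.01-fold, adjusted p = 1.23e-07; its log2 fold change was 2.33, and 2.99 without aerial library 1). PSP1, in contrast, was higher in the aerial part labelled psp1, at 477, 378 and 298 CPM against 95.1, 98.8 and 120 in roots (3.67-fold, log2 -1.88 ± 0.22, adjusted p = 1.7e-18). In WT it was higher in roots, at 140, 131 and 120 CPM against 88.8, 77.1 and 59.6 (log2 0.79). The difference between these organ contrasts was -2.60 on the log2 scale (edgeR quasi-likelihood interaction over all 12 libraries, adjusted p = 9.64e-06). None of the other 5 genes passed that test, with adjusted p-values from 0.269 to 0.748.

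Per length, as the length-scaled transcript levels (TPM) of the deposited tables, the dehydrogenase of highest level was PGDH1 in both organs. Its TPM was 52.2 ± 17.0 (SD, n = 3) in the aerial part against 209 ± 21.8 in roots. PGDH3 followed in the aerial part with 28.0 ± 7.27 TPM, and PGDH2 in roots with 127 ± 12.9 TPM, where PGDH3 had 0.354 ± 0.168. PSAT1 reached 15.4 ± 4.04 and 153 ± 7.55 TPM, and PSP1 372 ± 98.5 and 161 ± 19.1 TPM. In roots the levels of PSP1 and PSAT1 per length did not differ beyond their spread. In the aerial part the mean of PSP1 was the highest of the 6 genes.

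**Figure D2:**
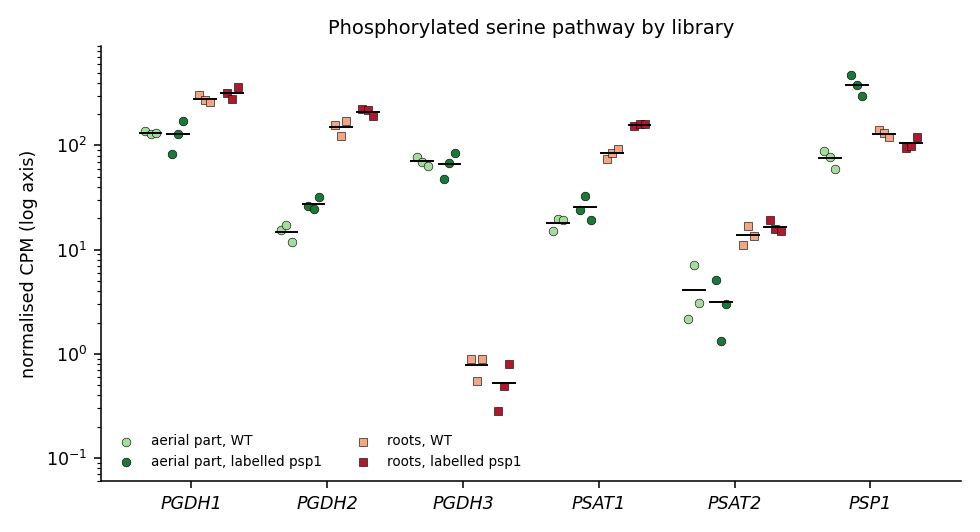
Normalised CPM on a log axis of the 6 genes of the phosphorylated serine pathway in each of the 12 libraries, by organ and labelled genotype, with bars at group means. CPM were scaled separately within each genotype. PGDH3 lies below 1 CPM in every root library labelled psp1, and PSP1 in the aerial libraries labelled psp1 (298 to 477 CPM) lies above all other PSP1 values.

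Photorespiration, the main route to serine in green tissue, had 19 of 20 members called higher in the aerial part and none higher in roots, with a median log2 fold change of -4.68. The glycolate oxidase gene GOX1, whose enzyme makes glyoxylate in peroxisomes, stood at 2275, 2816 and 3019 CPM in the aerial part against 5.84, 8.74 and 12.9 in roots (299-fold, adjusted p = 7.62e-158). The aminotransferase genes GGT1 and AGT1, which act on glyoxylate to form glycine and on serine, were 79.8-fold and 37.3-fold higher in the aerial part. SHM1, the mitochondrial hydroxymethyltransferase that forms serine from glycine, stood at 1686, 1707 and 1520 CPM against 43.5, 31.7 and 47.8 in roots (log2 -5.32 ± 0.19, adjusted p = 1.46e-125). GGT2, a close relative of GGT1, was the member not called, at 19.8, 23.4 and 32.0 CPM in the aerial part against 21.4, 20.3 and 13.7 in roots, with overlapping libraries. SHM1 and GGT2 were chosen after their values were seen. PGLP1 of this list shares its sequence with AT5G36790, so its own value is uncertain.

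Genes listed around the use of serine and its products were more often called higher in roots than in the aerial part. Of 15 members 7 were called higher in roots and 2 higher in the aerial part. THA1, a threonine aldolase that makes glycine, stood at 175, 143 and 185 CPM in the aerial part against 2.00, 0.660 and 0.595 in roots (143-fold, log2 -7.16 ± 0.42, adjusted p = 1.95e-115), or -7.99 without root library 1. Its WT log2 fold change was -1.98, at 87.5, 54.4 and 49.6 CPM in the aerial part against 21.2, 11.2 and 16.3 in roots. TSA1 encodes the alpha subunit of tryptophan synthase, which forms one complex with the beta subunit. TSA1 was higher in roots at 189, 187 and 213 CPM against 26.6, 45.2 and 51.9 (4.80-fold, adjusted p = 2.37e-20). The cytosolic hydroxymethyltransferase gene SHM4 was 2.79-fold higher in roots (adjusted p = 3e-17). The beta subunit gene TSB1, named after its values were seen, was not called (log2 0.05, adjusted p = 0.861). LCB2, a subunit of the serine palmitoyltransferase that starts sphingolipid synthesis, was named after its values were seen. It was the other member higher in the aerial part (log2 -0.87 ± 0.09, adjusted p = 1.72e-06), and with scaling to library totals 1 member was left on that side.

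Genes of the photosystems and their antennae were all higher in the aerial part, 37 of 37 called with at least a 4-fold difference and a median log2 fold change of -6.64. Together they took 4.53% to 5.87% of the counts of the aerial libraries and 0.0786% to 0.101% of the root libraries. PSAH2 (AT1G52230; chromosome 1, 19454798 to 19455668), a photosystem I subunit, stood at 690, 737 and 663 CPM in the aerial part against 4.13, 3.79 and 2.38 in roots (197-fold, log2 fold change SE 0.21, adjusted p = 1.31e-207). LHCA1 (AT3G54890; chromosome 3, 20339504 to 20341176), an antenna protein of photosystem I, stood at 1300, 1594 and 1722 against 8.98, 11.6 and 9.52 (153-fold, adjusted p = 2.13e-187). The members ranged up to 14740 CPM for LHCB1.3 in aerial library 3. LHCB1.3 has near copies at 96.1% to 96.4% identity, and LHCA2 and the LHCB2 pair have near copies as well, so counts could be divided among them.

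The region just before the start of the gene is shown for 2 of these genes that hold the elements marked below, and for RHD2, a gene of root hairs that went the other way. Each is the 250 bases before the annotated start on the gene's strand, from the RefSeq annotation of TAIR10.1, 5′ to 3′. Capitals mark an I-box core (GATAAG, or CTTATC where it lies on the other strand) or a G-box (CACGTG, which reads the same on both strands), elements described in promoters of light-regulated genes.
PSAH2 (chr1:19454548-19454797, plus strand): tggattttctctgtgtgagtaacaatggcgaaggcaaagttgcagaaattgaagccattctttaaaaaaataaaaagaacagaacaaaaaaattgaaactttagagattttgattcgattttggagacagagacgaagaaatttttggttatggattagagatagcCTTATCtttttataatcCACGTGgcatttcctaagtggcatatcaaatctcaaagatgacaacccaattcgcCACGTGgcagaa
LHCA1 (chr3:20341177-20341426, minus strand): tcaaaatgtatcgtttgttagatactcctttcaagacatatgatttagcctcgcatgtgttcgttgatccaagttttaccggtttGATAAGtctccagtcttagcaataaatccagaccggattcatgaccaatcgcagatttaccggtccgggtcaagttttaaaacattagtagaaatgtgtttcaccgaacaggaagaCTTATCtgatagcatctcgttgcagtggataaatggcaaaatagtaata
RHD2 (chr5:20762462-20762711, minus strand): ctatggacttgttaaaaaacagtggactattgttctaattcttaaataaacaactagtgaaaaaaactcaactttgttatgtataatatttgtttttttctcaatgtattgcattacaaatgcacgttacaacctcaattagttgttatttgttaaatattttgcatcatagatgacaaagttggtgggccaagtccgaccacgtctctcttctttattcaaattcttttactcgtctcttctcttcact

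PSAH2 held an I-box core on the other strand and 2 G-boxes, LHCA1 held 2 I-box cores, and RHD2 held neither motif. Most of the 37 photosystem promoters held neither motif. Over both strands the I-box core was in 11 of 37 photosystem promoters (29.7%), 4 of 20 Calvin cycle promoters (20%), 2 of 24 root hair promoters (8.33%) and 3271 of all 26718 promoters of this length (12.2%). The G-box was in 6 of 37 (16.2%), 3 of 20 (15%), 0 of 24 and 1758 of 26718 (6.58%). A match describes the letters of the window and not a bound site.

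Carbon fixation and chlorophyll synthesis went in the same direction as the photosystems. All 20 Calvin cycle genes were called higher in the aerial part, 19 of them at least 4-fold, with a median log2 fold change of -7.11. SBPASE, the bisphosphatase of the regeneration phase, stood at 1039, 1410 and 1157 CPM in the aerial part against 2.85, 3.96 and 3.17 in roots (360-fold, adjusted p = 5.63e-203). RBCS1B, a small subunit of Rubisco, was 576-fold higher, though it shares 97.3% identity with RBCS2B. The transketolase gene TKL1, also a member of the pentose phosphate pathway and named after its values were seen, had the smallest contrast of the list, at 505, 475 and 494 CPM in roots against 1605, 2196 and 1988 (log2 -1.97 ± 0.14, adjusted p = 8.85e-27).

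All 16 genes of chlorophyll synthesis were called higher in the aerial part, with a median of -4.62. CHLH, the large subunit of magnesium chelatase, stood at 10360, 10490 and 9719 CPM against 204, 190 and 208 in roots (50.8-fold, log2 -5.67 ± 0.05, adjusted p = 5.27e-178). CRD1, the cyclase of the next steps, was 97.1-fold higher in the aerial part. GSA1, an aminomutase named after its values were seen, stood at 106, 111 and 102 CPM against 25.1, 32.7 and 32.3 (log2 -1.83 ± 0.13, adjusted p = 1.29e-19). Plastid-encoded genes, tested in 65 of 88 cases, were called higher in the aerial part in 64 and higher in roots in 0, at a median of -4.01. They took 1.176% to 1.516% of aerial counts and 0.0842% to 0.114% of root counts, in libraries enriched for polyadenylated RNA.

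**Figure D3:**
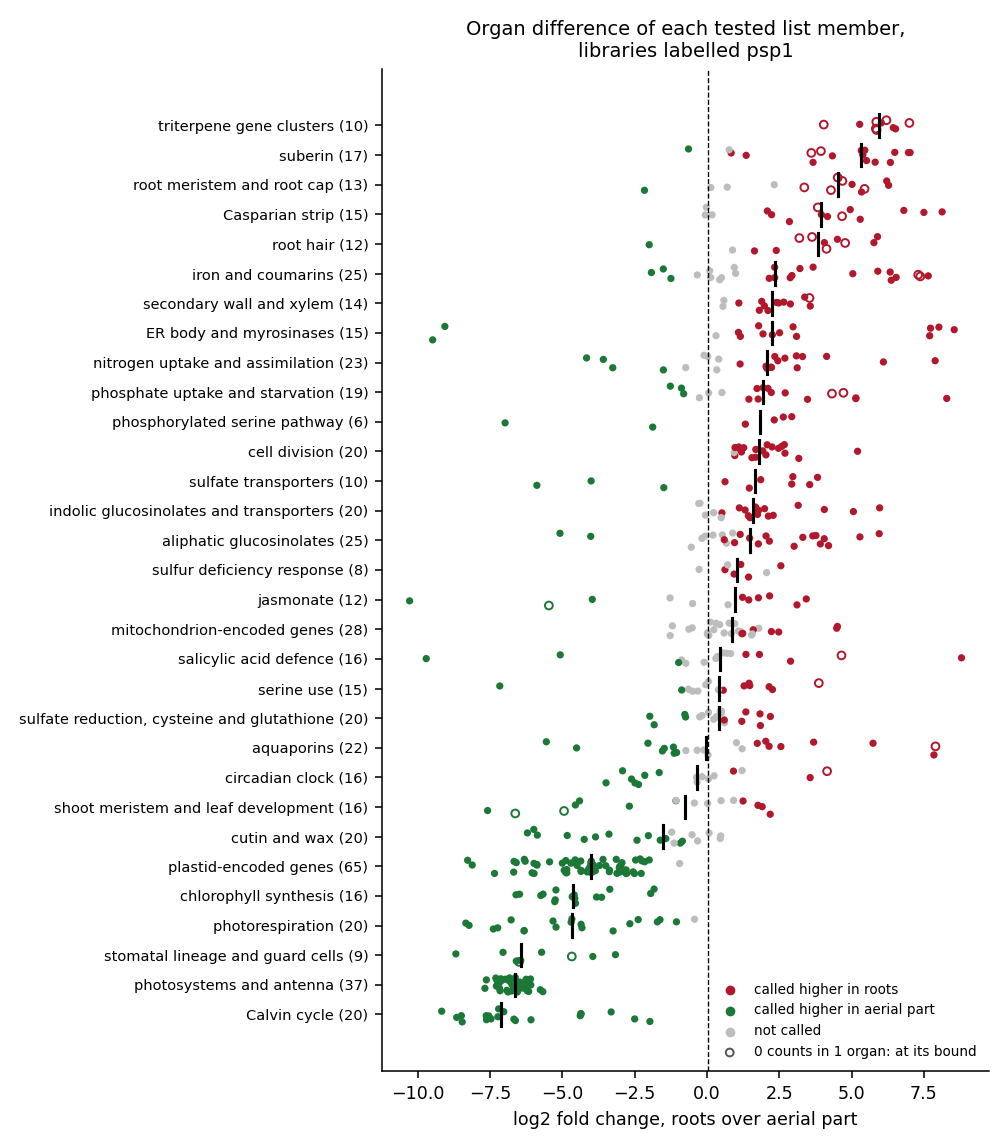
Log2 fold change (roots over aerial part, libraries labelled psp1) of each tested member of the gene lists, 1 row per list, with bars at list medians and a dashed line at the median of all genes (0.04). Red points were called higher in roots, green points higher in the aerial part and grey points were not called; open points are lower bounds for members with 0 counts in 1 organ.

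Of 15 genes of the stomatal lineage and guard cells, 9 passed the filter and all 9 were called higher in the aerial part at least 4-fold. Members that pass a filter through 1 organ alone had to differ, so the counts of this list and of the root lists below only describe them. FAMA, which sets guard cell fate, had 360 counts over the aerial libraries, at 32.3, 32.4 and 35.1 CPM, and 1 count over the root libraries, a ratio of 600 (95% exact counting interval 107 to 23780). MYB60, a guard cell transcription factor gene, stood at 11.5, 16.2 and 17.2 CPM in the aerial part with 0 counts in roots, at least 90.3-fold higher with a floor of 3 counts over the root libraries. The 6 members that did not pass the filter also had higher means in the aerial part.

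In cutin and wax synthesis 13 of 20 tested members (25 in the list) were higher in the aerial part and none was called higher in roots, though up to 2 were under other settings. The wax exporter gene CER5 stood at 302, 307 and 303 CPM against 18.8, 17.8 and 11.1 in roots (18.9-fold, adjusted p = 7e-83), and the elongase gene CER6 was 63.4-fold higher. Shoot meristem and leaf genes had 7 of 16 tested members (27 in the list) higher in the aerial part and 4 higher in roots. The abaxial identity gene YAB3 stood at 10.4, 22.1 and 16.5 CPM with 0 counts in roots, at least 98.8-fold higher. REV, a homeodomain gene that patterns vascular tissue as well as leaves, stood at 41.1, 50.9 and 28.3 CPM in the aerial part against 170, 195 and 183 in roots (4.55-fold, log2 2.19 ± 0.25, adjusted p = 4.11e-22). KNAT1, PHB and ANT, named after their values were seen, were the other members called higher in roots.

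Suberin genes, whose products make the lipid polyester of the endodermis and periderm, were higher in roots in 15 of 17 tested members (19 in the list), with a median log2 fold change of 5.46, or 5.33 with members at 0 counts set to their bound. CYP86A1, a fatty acid hydroxylase, stood at 80.1, 82.0 and 76.1 CPM in roots and 2.66, 0.330 and 1.69 in the aerial part (45.7-fold, adjusted p = 1.12e-62). The reductase gene FAR5, which makes fatty alcohols, stood at 51.5, 59.5 and 68.8 CPM against 0.818, 0.330 and 0.674 (89.9-fold, log2 6.49 ± 0.18, adjusted p = 8.78e-58). ASFT, which adds ferulate, was 41.9-fold higher in roots. Without aerial library 1 the median was 6.27, CYP86A1 stood at 6.33 and ASFT at 6.27 in place of 5.39. KCS20, an elongase that also serves waxes, was called higher in the aerial part (1.56-fold, log2 -0.64 ± 0.24, adjusted p = 0.0083), a call lost in 11 of 16 alternative analyses.

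Casparian strip genes, which build the lignin ring of the endodermis, were higher in roots in 12 of 15 tested members (16 in the list), and none was called higher in the aerial part, with a median of 4.17, or 5.97 without aerial library 1. The peroxidase gene PER64 stood at 38.1, 38.8 and 35.9 CPM in roots with 2 counts over the aerial libraries, a ratio of 205 (interval 56.5 to 1694). RBOHF, the oxidase that supplies the peroxidase, is also active in other tissues and stood at 114, 112 and 95.3 CPM against 13.5, 15.5 and 15.8 (7.21-fold, adjusted p = 6.75e-38). SHR and SCR, which pattern the ground tissue and were named after their values were seen, were not called (log2 0.18 and -0.06, adjusted p = 0.559 and 0.869). Their libraries overlapped between the organs for SCR and lay within 18.9 to 23.9 CPM for SHR. ESB1 of this list overlaps AT2G28671 on the other strand by 867 bases.

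Root hair genes had low counts, so 12 of 24 members passed the filter, 10 of them called higher in roots and 1 higher in the aerial part. Of the 12 members below the filter 11 had 0 counts in the aerial part, and all 12 had the higher mean in roots. RHD2 (AT5G51060; chromosome 5, 20757199 to 20762461), the oxidase of hair growth whose promoter is printed above, stood at 35.8, 38.8 and 49.0 CPM in roots and 1.02, 0 and 1.01 in the aerial part (54.6-fold, log2 5.77 ± 0.44, adjusted p = 4.27e-39). The cellulose synthase-like gene CSLD3 was 3.12-fold higher in roots. LRX1, a wall protein gene, stood at 8.27, 7.26 and 7.14 CPM in roots with 0 counts in the aerial part, at least 27.4-fold higher. GL2, which represses hairs in roots and promotes trichomes in leaves, was the member higher in the aerial part, at 28.9, 38.6 and 24.9 CPM against 10.3, 5.94 and 6.74 (3.99-fold, adjusted p = 3.59e-09). The number called higher in roots was 16 without a filter and 6 with a replicate block.

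Root meristem and cap genes were called higher in roots in 9 of 13 tested members (18 in the list). PIN2, the auxin exporter of the epidermis and lateral cap, stood at 76.2, 77.9 and 68.4 CPM in roots and 0.409, 2.31 and 0.337 in the aerial part (77.6-fold, adjusted p = 8.08e-63; log2 6.28, and 7.54 without aerial library 2). PLT3, a transcription factor of the stem cell niche, was 40.6-fold higher in roots at 59.4, 72.6 and 57.7 CPM (log2 5.34, and 6 without aerial library 1). PIN4, another auxin exporter, was higher in the aerial part, at 137, 168 and 170 CPM against 36.8, 35.0 and 34.3 (4.47-fold, log2 -2.16 ± 0.11, adjusted p = 8.83e-30).

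Genes of cell division were called higher in roots in 19 of 20 members, with a median of 1.81 and with lower levels in the aerial part in every member. The kinesin gene HIK, needed for cytokinesis, stood at 35.5, 35.1 and 25.8 CPM in roots and 6.96, 6.60 and 10.1 in the aerial part (4.11-fold, adjusted p = 1.78e-10). Without aerial library 1 the count was 12, and with a replicate block it was 11. Of the secondary wall and xylem genes 12 of 14 tested members (21 in the list) were higher in roots and none was called higher in the aerial part. The cellulose synthase gene CESA7 stood at 78.1, 67.1 and 91.0 CPM in roots against 17.8, 13.9 and 9.78 (5.59-fold, adjusted p = 8.96e-21), and the protease gene XCP1 of dying vessel cells was 11.9-fold higher.

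Specialised metabolism divided by organ as well. Genes of the triterpene clusters, neighbouring groups that serve the routes to compounds such as thalianol and marneral, were higher in roots in all 10 tested members of 12. THAS1, the thalianol synthase gene, stood at 60.3, 65.7 and 55.3 CPM in roots against 1.64, 0.660 and 0 (65.3-fold, log2 6.03 ± 0.47, adjusted p = 9.11e-57), or 7.45 without aerial library 1. CYP71A16, which acts on marneral products, had 0 aerial counts and 36.3, 41.7 and 27.6 CPM in roots, at least 128-fold higher. The fitted median of the list was 8.35, and 5.95 with the 6 members at 0 aerial counts set to their bounds. Without aerial library 1 the fitted median was 8.94, and without root library 2 it was 9.09.

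Enzymes that cut glucosinolates and related glucosides differed by organ. TGG1 (AT5G26000; chromosome 5, 9079452 to 9082384), the main myrosinase of leaves, stood at 1803, 1888 and 1579 CPM in the aerial part against 1.85, 2.97 and 5.35 in roots (534-fold, log2 -9.06 ± 0.42, adjusted p = 1.72e-206). TGG2 (AT5G25980) was 715-fold higher in the aerial part, at 488, 724 and 618 CPM. TGG5 and TGG4, the root myrosinases, were named after their values were seen and share 97.7% identity, so counts could be divided between them. TGG5 stood at 101, 97.7 and 106 CPM in roots and 0.614, 0.330 and 0 in the aerial part. In the ER body list as a whole 12 of 15 tested members (16 in the list) were higher in roots and 2, TGG1 and TGG2, were higher in the aerial part. The scopolin glucosidase gene BGLU21 stood at 204, 193 and 194 CPM in roots and 1.84, 0 and 0.337 in the aerial part (212-fold, adjusted p = 2.01e-129; log2 7.73, and 10.05 without aerial library 1).

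Nitrogen uptake and transport genes were mostly higher in roots, with 14 of 23 tested members (28 in the list) called there and 4 in the aerial part. NRT1.5, which loads nitrate into the xylem, stood at 1002, 927 and 1269 CPM in roots and 18.0, 11.9 and 16.2 in the aerial part (68.5-fold, log2 6.10 ± 0.22, adjusted p = 1.49e-132). NIA2 (AT1G37130; chromosome 1, 14158452 to 14161938), the main nitrate reductase, was higher in the aerial part at 5037, 5424 and 5639 CPM against 424, 421 and 498 (11.99-fold, log2 -3.58 ± 0.09, adjusted p = 7.26e-83). The asparagine synthetase gene ASN1 was 17.9-fold higher in the aerial part, at 1149, 944 and 960 CPM. NRT1.1, a nitrate transporter and sensor named after its values were seen, stood at 315, 274 and 273 CPM in roots against 45.6, 55.1 and 58.0 (log2 2.45 ± 0.13, adjusted p = 1.75e-39).

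Of the phosphate genes 13 of 19 tested members (23 in the list) were higher in roots and 3 higher in the aerial part, or 0 when scaled to library totals. PHT1;1, the main phosphate importer, stood at 157, 161 and 139 CPM in roots and 0.205, 0.660 and 0.674 in the aerial part (312-fold, adjusted p = 1.66e-116), though 97.7% identity with PHT1;2 makes the division of reads between them uncertain. PHT1;4 (AT2G38940; chromosome 2, 16257157 to 16260253) stood at 201, 190 and 221 CPM against 6.34, 5.28 and 5.39 (35.4-fold, log2 5.14 ± 0.09, adjusted p = 7.01e-104). PHO1, which exports phosphate to the xylem, was 35.5-fold higher in roots at 1264, 1335 and 992 CPM. SQD1, of sulfolipid synthesis, was higher in the aerial part (1.84-fold, log2 -0.88 ± 0.10, adjusted p = 1.26e-05), which scaling to library totals ended (adjusted p = 0.122).

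The P1BS element (GNATATNC, which reads the same on both strands), bound by the phosphate response regulator PHR1, was in 4 of 23 phosphate promoters (17.4%) and in 1455 of all 26718 (5.45%). SPX3, a sensor of phosphate status chosen after its values were seen, held 2 of them (capitals). It stood at 9.41, 7.92 and 4.96 CPM in roots and 0.614, 0.660 and 3.71 in the aerial part. The organs did not overlap, which also held for 63.2% of all genes tested, and the nearest values were 4.96 and 3.71 CPM.
SPX3 (chr2:18606160-18606409, plus strand): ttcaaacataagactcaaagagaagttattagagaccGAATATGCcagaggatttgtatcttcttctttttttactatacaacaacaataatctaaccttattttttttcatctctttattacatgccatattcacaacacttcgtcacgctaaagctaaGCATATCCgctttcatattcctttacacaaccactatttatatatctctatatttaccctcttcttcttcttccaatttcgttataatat

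Iron and coumarin genes were called higher in roots in 15 of 25 tested members (27 in the list) and higher in the aerial part in 3. NAS2, a nicotianamine synthase gene, stood at 47.2, 44.7 and 45.2 CPM in roots with 0 counts in the aerial part, at least 166-fold higher. IRT1, the iron importer of the root epidermis and named after its values were seen, stood at 40.2, 45.5 and 44.8 CPM with 0 aerial counts, at least 158-fold higher. PDR9, an exporter that releases coumarins, stood at 506, 539 and 392 CPM in roots against 11.9, 14.9 and 17.5 (32.9-fold, log2 5.04 ± 0.22, adjusted p = 2.65e-99). The ferritin gene FER4 was higher in the aerial part, at 39.7, 39.3 and 48.9 CPM against 11.97, 9.40 and 12.3 (3.79-fold, adjusted p = 3.32e-13).

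Sulfate transporters were called in all 10 tested members of 12, with 7 higher in roots and 3 higher in the aerial part. SULTR1;2, the main importer of the root surface, stood at 130, 140 and 131 CPM in roots and 13.9, 11.6 and 8.09 in the aerial part (11.7-fold, log2 3.55 ± 0.21, adjusted p = 1.5e-52). SULTR3;3 and SULTR3;1, of a subfamily found in the chloroplast envelope, were higher in the aerial part, at 71.6, 83.5 and 80.6 CPM against 1.85, 1.65 and 0.198 for SULTR3;3 (58.9-fold, adjusted p = 1.64e-70) and 16.1-fold for SULTR3;1. The libraries of the organs did not overlap in any of the 10 genes, against 63.2% of all genes tested without overlap.

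Sulfate reduction, cysteine and glutathione synthesis had 6 of 20 members higher in roots, 4 higher in the aerial part and a median of 0.40, with both counts near the shares of all genes tested (25.2% and 24.5%). The APS reductases, which commit activated sulfate to reduction, went in both directions. APR1 stood at 368, 352 and 441 CPM in roots and 66.9, 101 and 87.3 in the aerial part (4.57-fold, log2 2.19 ± 0.20, adjusted p = 5.62e-27). APR2 stood at 173, 181 and 160 CPM in roots and 558, 656 and 609 in the aerial part (3.54-fold, log2 -1.83 ± 0.08, adjusted p = 3.97e-28). APR3, named after its values were seen, was not called, at 252, 223 and 377 CPM in roots and 217, 243 and 266 in the aerial part. The plastid cysteine synthase gene OASB was 3.94-fold higher in the aerial part. Scaling to library totals gave 12 members higher in roots and 2 higher in the aerial part, and upper quartile factors gave 10 higher in roots. Of the sulfur deficiency genes 5 of 8 tested members (10 in the list) were higher in roots, among them LSU2 at 24.5, 21.1 and 28.5 CPM against 9.002, 10.2 and 8.09 (2.71-fold, adjusted p = 4.03e-06).

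Aliphatic glucosinolate genes, which make the defence compounds derived from methionine, were called higher in roots in 16 of 25 tested members (26 in the list) and higher in the aerial part in 2, with a median of 1.47. MAM3, which elongates the methionine chain, stood at 743, 771 and 556 CPM in roots and 16.4, 5.28 and 10.8 in the aerial part (61.9-fold, log2 5.95 ± 0.46, adjusted p = 1.1e-73). The adjacent genes CYP79F2 and CYP79F1 on chromosome 1, whose enzymes turn elongated methionine into aldoximes, went in opposite directions. CYP79F2 (5605044 to 5607498) stood at 205, 184 and 232 CPM in roots and 6.14, 4.95 and 4.38 in the aerial part (39.0-fold, adjusted p = 1.9e-99). CYP79F1 (5608682 to 5612064) stood at 2.57, 0.825 and 3.96 CPM in roots and 48.7, 49.5 and 20.2 in the aerial part (16.2-fold, log2 -4.02 ± 0.70, adjusted p = 4.91e-15). No library of either organ crossed into the range of the other for these 3 genes, which also held for 63.2% of all genes tested.

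Indolic glucosinolate genes, which start from tryptophan, were higher in roots in 15 of 20 tested members (21 in the list), and none was called higher in the aerial part, with a median of 1.59. CYP81F4, which hydroxylates the indole ring, stood at 190, 175 and 225 CPM in roots against 3.27, 0.330 and 5.73 (62.6-fold, adjusted p = 4.53e-67; log2 5.97, and 6.56 without aerial library 3), and it overlaps AT4G37409 on the other strand by 396 bases. IGMT5, a methyltransferase that adds to the same ring, was 33.4-fold higher in roots (log2 5.06, and 6.07 without aerial library 1). The glutathione transferase gene GSTF10 was 4.35-fold higher in roots, at 476, 496 and 426 CPM.

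In the salicylic acid list 5 of 16 tested members (18 in the list) were higher in roots and 3 higher in the aerial part, near the shares of all genes (25.2% and 24.5%), with 9 and 8 higher in roots under library totals and upper quartile factors. ACD6, a membrane regulator of defence, stood at 319, 330 and 377 CPM in the aerial part against 0.713, 0.330 and 0 in roots (834-fold, adjusted p = 2.91e-191; log2 -9.70, and -10.68 without root library 1). FMO1, which makes the immune signal N-hydroxypipecolic acid, stood at 58.1, 61.9 and 36.1 CPM in roots with 1 count over the aerial libraries, a ratio of 578 (interval 104 to 22870). In the jasmonate list 6 of 12 tested members (15 in the list) were higher in roots and 3 higher in the aerial part. LOX2, the leaf lipoxygenase of jasmonate synthesis, stood at 137, 187 and 186 CPM in the aerial part with 2 counts over the root libraries, a ratio of 1490 (interval 412 to 12310). The regulator gene MYC2 was 4.49-fold higher in roots, at 202, 163 and 230 CPM against 42.1, 35.0 and 55.6 (adjusted p = 1.54e-21).

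The water channels had 8 members higher in roots and 8 higher in the aerial part among 22 tested (24 in the list). Their median of -0.04 changed sign under several scalings. NIP1;1 stood at 60, 69.5 and 67.8 CPM in roots with 0 aerial counts, at least 238-fold higher. TIP2;1, a vacuolar form, was higher in the aerial part at 266, 289 and 350 CPM against 12.7, 11.6 and 15.7 (22.7-fold, adjusted p = 9.39e-91). Of the clock genes 7 of 16 tested members (17 in the list) were higher in the aerial part and 3 higher in roots, at a median of -0.35 that became 0.20 with library totals. LHY, a morning gene, stood at 1915, 1454 and 1524 CPM in the aerial part against 274, 298 and 229 in roots (6.10-fold, adjusted p = 5.02e-40), while PRR9 stood at 15.8, 20.3 and 17.2 CPM in roots against 1.43, 0 and 3.03 (11.8-fold, adjusted p = 2.36e-11; log2 3.57, and 4.35 without aerial library 3). PRR9 has a near copy, AT2G46670.

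The organ contrast of the libraries labelled psp1 was then set against that of WT. In WT, fitted on its own 6 libraries, 11729 of 18202 genes (64.4%) were called, with 33.6% higher in roots and 30.8% higher in the aerial part, and 4789 (26.3%) with at least a 4-fold difference. The difference between the contrasts was tested directly over all 12 libraries with the quasi-likelihood test of edgeR. Of 18759 genes, 315 (1.68%) were called, 153 (0.816%) shifted toward roots and 162 (0.864%) toward the aerial part in the libraries labelled psp1. Depth and spread differed between the genotypes as given above. With all libraries thinned to equal depth 316 genes were called, 265 of them shared with the 315, and the part of the spread was not tested. The count was 170, 136 and 194 without WT aerial library 1, 2 or 3. Genes shifted toward roots numbered 84 and 81 without WT aerial library 1 or 2, 87, 99 and 89 without WT root library 1, 2 or 3, and 91 and 93 without root library 1 or 2 labelled psp1. Those shifted toward the aerial part numbered 86, 55 and 89 without WT aerial library 1, 2 or 3. DESeq2 called 828 (331 toward roots and 497 toward the aerial part).

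**Figure D4:**
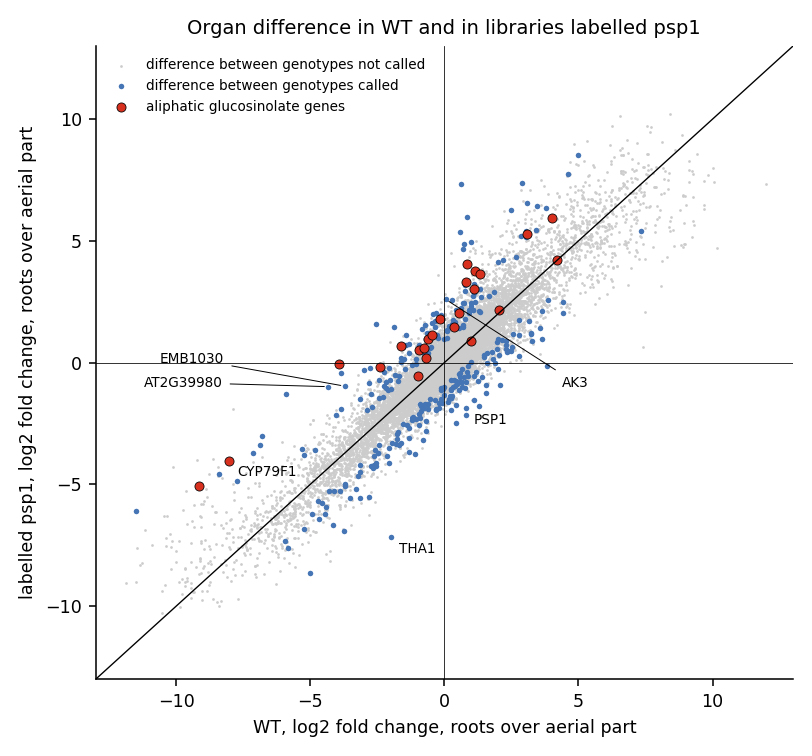
Log2 fold change of roots over aerial part in WT (x axis) and in the libraries labelled psp1 (y axis) for 16714 genes with counts in both organs, each fitted on the 6 libraries of its genotype. Blue points are the 307 genes shown whose contrasts differed by the interaction test, red points are aliphatic glucosinolate genes, and a point above the diagonal is shifted toward roots in the libraries labelled psp1.

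Aliphatic glucosinolate genes were 18 of the 153 genes shifted toward roots, out of 25 members tested, and none was called toward the aerial part. Of all genes tested 0.816% and 0.864% were called in these directions. The list was chosen with earlier results of these data known. Their median log2 fold change was 1.47 in the libraries labelled psp1 and 0.10 in WT, and the median of the tested difference was 1.99. The number called ran from 14 to 18 without any 1 library. IMD1 (AT5G14200; chromosome 5, 4576123 to 4578402), a dehydrogenase of methionine chain elongation, stood at 18.2, 24.1 and 25.96 CPM in the aerial part against 280, 277 and 294 in roots labelled psp1. In WT it stood at 42.6, 52.9 and 37.6 CPM in the aerial part against 122, 115 and 96.4 in roots. Its log2 fold change was 3.66 in the libraries labelled psp1 and 1.32 in WT (difference 2.41, adjusted p = 4.3e-06). CYP79F1, higher in the aerial part in both genotypes, was nearly absent from WT roots, at 0.226, 0 and 0.710 CPM, and stood at 83.7, 85.0 and 90.9 in the WT aerial part (difference 4.02, adjusted p = 0.00562, up to 0.0265 over the alternatives).

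The transaminase gene BCAT4, which starts chain elongation and was named after its values were seen, had log2 fold changes of 3.77 and 1.16 in the libraries labelled psp1 and in WT (difference 2.69, adjusted p = 9.18e-07). MYB28, the transcription factor that activates the pathway, also named after its values were seen, was slightly higher in roots labelled psp1 and lower in WT roots (log2 0.60 and -0.76, difference 1.43, adjusted p = 0.000566). SOT18 and GSOX4, a sulfotransferase and an oxygenase of the late steps, were also named after their values were seen. They had nearly the same contrast in both genotypes (differences 0.19 and 0.09, adjusted p = 0.759 and 0.928).

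**Figure D5:**
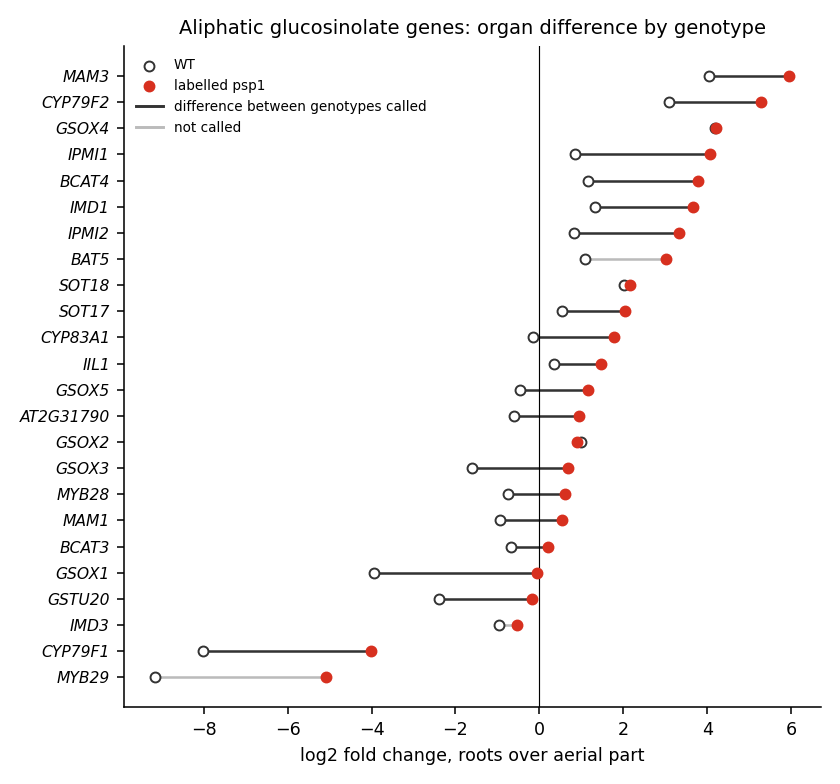
Log2 fold change of roots over aerial part for 24 aliphatic glucosinolate genes, with WT as open points and the libraries labelled psp1 as red points joined by a line, dark where the interaction test called the difference. In 23 of the 24 genes the red point lies to the root side of the open one.

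Of 24 nitrogen genes tested for the interaction, 6 were shifted toward roots in the libraries labelled psp1 and none was called toward the aerial part, against 0.816% and 0.864% of all genes. The glutamine synthetase gene GLN1;2, named after its values were seen, was higher in roots labelled psp1 and higher in the aerial part of WT (log2 1.15 and -1.42, difference 2.64, adjusted p = 2.96e-06). NIA2 was higher in the aerial part in both, by 3.58 and 4.83 units of log2, and WT roots held 211, 202 and 177 CPM against 424, 421 and 498 in roots labelled psp1 (difference 1.33, adjusted p = 0.000283). PHT1;4 reached 23.2, 34.2 and 35.9 CPM in WT roots against 201, 190 and 221 in roots labelled psp1 (difference 2.17, adjusted p = 0.000556). SULTR2;1, a vascular sulfate transporter named after its values were seen, had log2 fold changes of 0.62 and -1.54 (difference 2.23, adjusted p = 2.35e-06).

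Single genes with the smallest p of the interaction were of several kinds. EMB1030, an alanyl-tRNA synthetase gene with a near copy of 108 bases in AT1G49930, stood at 89.7, 86.4 and 95.9 CPM in roots labelled psp1 and 13.4, 12.2 and 14.1 in WT roots. Its aerial values were close in both genotypes, at 188, 176 and 166 CPM and at 185, 167 and 170 (difference 2.83, adjusted p = 9.94e-08). AK3, an aspartate kinase gene, stood at 268, 279 and 271 CPM in roots labelled psp1 and 83.3, 91.9 and 88.9 in WT roots, with aerial values of 32.7, 51.5 and 51.9 against 78.2, 83.5 and 94.3 in WT (difference 2.63, adjusted p = 8.94e-07). THA1 and PSP1 were among the 4 genes of smallest p shifted toward the aerial part, with differences of -5.11 (adjusted p = 3.77e-06) and -2.60. The lists of stomatal, suberin, Casparian strip, root hair, root meristem, triterpene, xylem and cell division genes had 0 members called by the interaction test, which called 1.68% of all genes, and nothing particular to these lists is read from it. Single members were called by DESeq2 or without 1 library in the suberin, Casparian strip, root meristem, triterpene and cell division lists.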

How the data were processed

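Poly(A)-enriched RNA of 12 libraries in 4 groups of 3 was read on a SOLiD 5500XL as single reads, per the labels' protocols. The authors quantified reads against TAIR10 coding sequences with kallisto 0.43.0, per the labels' protocols and the submitters' processing notes, and deposited an estimated count per transcript target for each library. They deposited TPM beside it, which the authors' tool scales for target length. No strand rule is stated in the sources used here, so genes that overlap on opposite strands, and near copies, cannot be told apart fully. The submitters' processing notes also name R 3.3.2 and edgeR.

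Estimated counts were rounded to whole numbers and tested in edgeR 4.0.16 (R 4.3.3) with TMM factors, filterByExpr, the exact test and Benjamini-Hochberg adjustment, on the 6 libraries labelled psp1. A call is an adjusted p under 0.01, and a second rule also asks for a fold of at least 4. The difference between the organ contrasts of the genotypes was the interaction term of the edgeR quasi-likelihood fit over all 12 libraries. SEs come from log2 CPM with a prior count of 2 and understate the error of genes with few counts. Genes at 0 in an organ have a bound from a floor of 3 counts over its libraries, and genes with 1 to 3 counts a ratio with an exact 95% counting interval. Both cover counting error only. P-values set a difference against the spread between the 3 libraries of a group. That spread was estimated per gene for all groups together, though it differed between the groups. The fit was checked on simulated data.

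The members and gene lists were chosen with earlier results of these data known. Named genes were all 6 of the serine pathway. To these were added, per direction, the 6 of highest level among called genes with a log2 fold change of at least 3 and no overlap, and the 5 of largest fold with at least 50 counts on average in the higher organ and 10 summed in the lower. Each list gave up to 3 called members of smallest p and the called member of smallest p in its minority direction, and the interaction gave 4 of smallest p per direction. Genes outside this rule are marked where their values or calls are given.

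Of 27416 targets 26719 (97.46%) matched the RefSeq annotation of TAIR10.1, which gave the coordinates and promoters. Same-numbered root and aerial libraries labelled psp1 had correlated deviations of 0.037, 0.020 and 0.071. The libraries were tested as unpaired, and whether the numbers pair them is not settled. Alternatives were RLE, upper quartile and library total scaling, other filters, DESeq2 1.42.0, the quasi-likelihood test, equal depth, a replicate block and leaving out each library.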

Additional observations from a re-analysis of the deposited data

Results flagged for a closer look

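These genes had an organ contrast that differed between the libraries labelled psp1 and WT, by the edgeR quasi-likelihood interaction test over 12 libraries (adjusted p under 0.01), and all belong to the named genes. Each value is the interaction estimate of that joint fit, for the log2 contrast (roots over aerial part) of the libraries labelled psp1 against that of WT. Where given, the separate contrasts follow in that order. They were fitted on the libraries of each genotype alone, so their subtraction departs slightly from the estimate.

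Shifts toward roots in the libraries labelled psp1 were found for genes of several functions. EMB1030 differed by 2.83 (-0.96 and -3.72, adjusted p = 9.94e-08). G3Pp1, annotated as a putative glycerol-3-phosphate transporter, differed by 2.77 (-0.29 and -2.99, adjusted p = 2.32e-07), with overlapping organs in the libraries labelled psp1. AT2G39980, an acyltransferase family gene, differed by 3.41 (-0.99 and -4.33, adjusted p = 8.94e-07), and AK3 by 2.63 (2.60 and 0.05, adjusted p = 8.94e-07). In the aliphatic glucosinolate list the shift was 2.41 for IMD1 (adjusted p = 4.3e-06), 2.26 for CYP79F2 (adjusted p = 5.1e-05), 1.97 for MAM3 (adjusted p = 0.00216) and 4.02 for CYP79F1 (adjusted p = 0.00562). Among nutrient and hormone genes it was 1.33 for NIA2 (adjusted p = 0.000283), 2.17 for PHT1;4 (adjusted p = 0.000556), 0.96 for APR2 (adjusted p = 0.00174) and 1.18 for MYC2 (adjusted p = 0.0059).

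Shifts toward the aerial part were found for CYP81D11, a cytochrome P450 gene, with -2.72 (-1.26 and 1.54, adjusted p = 9.18e-07), and for AT5G61590, annotated as an integrase-type DNA-binding protein, with -2.82 (-2.46 and 0.45, adjusted p = 9.81e-06). THA1 differed by -5.11 (-7.16 and -1.98, adjusted p = 3.77e-06) and PSP1 by -2.60 (-1.88 and 0.79, adjusted p = 9.64e-06). Smaller shifts were -1.12 for AT1G74470 (adjusted p = 0.00137), -1.29 for TIP2;1 (adjusted p = 0.00246) and -1.54 for FER4 (adjusted p = 0.00963).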

How the results depend on the processing

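Of 122 named genes called between organs, 117 kept their direction and call under all 16 alternatives. KCS20 lost its call in 11 of them (adjusted p up to 0.775), SQD1, EMB1030 and AT2G39980 with library totals (adjusted p = 0.122, 0.0234 and 0.105) and ATMG00270 with a replicate block (adjusted p = 0.0181). Genes called between organs numbered 7407 to 8820 without any 1 library. With library totals 7137 were called higher in roots, and G3Pp1 changed sign to 0.27 (adjusted p = 0.166). The aquaporin median became 0.03 with RLE factors, 0.53 with library totals, 0.21 with upper quartile factors, 0.03 with DESeq2 and 0.02 in the quasi-likelihood fit of all 12 libraries, and ran from -0.11 to 0.11 without 1 library. The clock median became 0.20 with library totals.

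For the difference between genotypes, DESeq2 called 828 genes (331 toward roots and 497 toward the aerial part). Without 1 library the count ran from 136 to 374, with 81 to 181 toward roots and 55 to 241 toward the aerial part. Of 19 named calls 15 were kept under all 19 alternatives, and FER4, APR2, CYP79F1 and MYC2 were lost under some (adjusted p up to 0.0344, 0.0156, 0.0265 and 0.0323). The cause of these changes was not tested.

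With the replicate block 7027 genes were called between organs and 291 for the difference between genotypes. Deviations of same-numbered libraries correlated at 0.037, 0.020 and 0.071 in the libraries labelled psp1 and at 0.029, 0.126 and 0.182 in WT, against -0.080 to 0.069 and -0.165 to 0.041 for other numbers. All same-numbered values were positive, the highest of them in WT, so whether the numbers pair the libraries is not settled. The main tests treated the libraries as unpaired. The fold change of 31 named genes moved by over 1.5 times without 1 library, 15 of them without aerial library 1. Counts of few reads limit genes near 0 in an organ, and the aerial libraries labelled psp1 had the widest spread.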

Other observations

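Of 122 genes encoded in the mitochondrion, 28 passed the filter in the libraries labelled psp1, with 7 called higher in roots and 0 called higher in the aerial part by the edgeR exact test. Of all genes tested 25.2% were called higher in roots, a share near that of these 28. Their median log2 fold change was 0.87, and 0.24 in WT. With library totals 11 were called higher in roots, and with a replicate block 3. Without root library 1 the number was 11, and without root library 3 it was 3, with 1 called higher in the aerial part. ATMG00510 stood 2.31-fold higher in roots. These genes came from libraries enriched for polyadenylated RNA, and the part of that step in the counts was not tested.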
